A study of Homo sapiens with 42 samples.

Results

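The 9 genes described here are the glucocorticoid receptor, NR3C1, and 8 genes that glucocorticoids are known to switch on directly in many cell types: FKBP5, TSC22D3, PER1, KLF9, DUSP1, SGK1, ZFP36L2 and TXNIP. They were chosen by symbol, out of 57820 genes in the widest count table, and each was found in all 5 B-cell acute lymphoblastic leukaemia (B-ALL) cell lines. In Reh and 697 an empty vector (EV) was compared with a vector for the wild-type histone methyltransferase NSD2 (WT) or for its E1099K form (EK), with 2 libraries of each arm in Reh and 3 of each in 697. In RS411 (RS4;11), RCH (RCH-ACV) and SEM a non-targeting hairpin (NT) was set against 2 hairpins, sh2 and sh5, each arm with 3 libraries. The series text gives sh2 as the knockdown of NSD2, and sh5 stands in the sample titles only. The labels give no treatment for any of the 42 libraries, so no arm is known to have had added glucocorticoid, and the levels are those of cells in serum-containing medium. The labels also do not say whether an arm was 1 clone or a pool of transduced cells.

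The glucocorticoid receptor waits in the cytoplasm in a complex with HSP90 and its partner proteins. When it binds a steroid such as dexamethasone or prednisolone, which are backbone drugs of B-ALL therapy, it enters the nucleus and binds DNA at glucocorticoid response elements, many of them far from promoters. Among its targets are a cochaperone that dampens the receptor (FKBP5), transcription regulators (TSC22D3, PER1, KLF9), regulators of kinase signalling (DUSP1, SGK1), an RNA-binding protein (ZFP36L2) and a regulator of glucose uptake and redox state (TXNIP). Each of these genes also answers to other signals, so its level alone does not report the activity of the receptor.

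The proximal promoters were searched because the 8 response genes did not move as 1 group in any line. RefSeq windows (GRCh38.p14) of 250 bases before to 50 bases after each start were at hand for 8 of the 9 genes, with 21 starts in all, and ZFP36L2 had no entry. Each window was searched on both strands for the full glucocorticoid response element (AGAACA, then any 3 bases, then TGTTCT), its first arm AGAACA alone, the E-box CACGTG, the cyclic AMP response element TGACGTCA and the serum response element core (CCATA followed directly by TTAGG). The letters of 1 motif can also lie inside a match to another. The windows with a match before the start are shown as the 250 bases before it. They run 5′ to 3′ on the gene's strand, with the matches in capitals. DUSP1, PER1 and FKBP5 shared the E-box, and DUSP1 alone held the cyclic AMP response element. Whether the matches bear on any level was not tested.
DUSP1, chr5:172771196-172771445, minus strand: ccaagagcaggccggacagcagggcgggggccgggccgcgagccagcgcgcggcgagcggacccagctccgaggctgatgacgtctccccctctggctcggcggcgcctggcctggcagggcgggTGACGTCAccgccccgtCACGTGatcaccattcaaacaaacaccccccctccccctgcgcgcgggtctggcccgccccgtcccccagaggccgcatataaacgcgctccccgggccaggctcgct
PER1, chr17:8152405-8152654, minus strand: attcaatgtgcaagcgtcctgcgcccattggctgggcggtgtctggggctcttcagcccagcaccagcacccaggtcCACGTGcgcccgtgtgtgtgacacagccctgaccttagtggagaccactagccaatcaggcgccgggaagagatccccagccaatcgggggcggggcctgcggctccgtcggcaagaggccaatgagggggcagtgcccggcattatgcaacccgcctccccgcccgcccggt
FKBP5, 1 of 2 starts, chr6:35688916-35689165, minus strand: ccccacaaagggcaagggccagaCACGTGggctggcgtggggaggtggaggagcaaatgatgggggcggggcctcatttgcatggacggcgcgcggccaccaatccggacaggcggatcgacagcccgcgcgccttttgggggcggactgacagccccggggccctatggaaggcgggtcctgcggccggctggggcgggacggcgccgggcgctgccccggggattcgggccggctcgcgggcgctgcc

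The DUSP1 window held a cyclic AMP response element 125 bases and an E-box 108 bases before the start, and the E-box matches of PER1 and FKBP5 began 173 and 227 bases before it. Over all 35116 RefSeq windows of this length, 7.26% held the E-box and 1.85% the cyclic AMP response element. Such shares count windows, of which the 8 genes had 21, so a number of genes cannot be set beside them. The single arm AGAACA was matched only after a start, in FKBP5 and SGK1, and 14.8% of all windows held it. The full element was matched in no window of the members and in 1 of all 35116, and the serum response element core in no window of the members and in 0.0342% of all. The count tables give 1 value per gene and do not tell starts apart.

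The libraries held 21941718 to 67796769 reads assigned to genes. Levels are given in CPM, the counts of a gene scaled to the total count of its library. NSD2 followed the labels in every line: all WT and EK libraries lay above all EV libraries of the same line (1546 to 2306 CPM against 162.6 to 586), and all sh2 and sh5 libraries below all NT libraries (133 to 261 CPM against 296 to 365). The B-cell precursor markers were present, with 8 of 8 above 1 CPM in 4 lines and 7 of 8 in Reh, where VPREB1 was listed at 0. Of 6 erythroid and megakaryocytic markers none reached 1 CPM in any arm. Nothing says that replicates were separate cultures, so p-values measure the spread between these libraries, which may be technical. In bulk RNA, fewer cells of a type and less RNA per cell cannot be told apart.

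Some libraries stood apart from their labels before any test of the members. Over 10698 genes, RCH sh5 replicate 1 had a mean correlation of 0.976 with the 3 RCH sh2 libraries and of 0.956 with the other 2 sh5 libraries. Those 2 were closer to NT than to their own arm, and RCH NT replicate 1 was closer to sh5 (0.969) than to NT (0.966). In RS411, sh2 replicate 3 was closer to sh5 (0.992) and NT (0.991) than to the other sh2 libraries (0.986), and its NSD2 level of 248 CPM stood beside 153 and 159. In Reh all 6 libraries and in 697 8 of 9 were closest to another arm, and in SEM none was. Without RCH sh5 replicate 1, the members called in RCH were NR3C1, TSC22D3 and DUSP1 with sh2 and TSC22D3 between the hairpins, and with sh5 no member was called against NT. The share of all genes called in that refit is not given, so these calls are no result about the members as a group. Without RS411 sh2 replicate 3, or without RCH NT replicate 1, no member was called against NT in that line. In 697, EK replicate 2 had 0.732% mitochondrially encoded reads against 0.218% to 0.370% in the other 8 libraries.

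**Figure D1:**
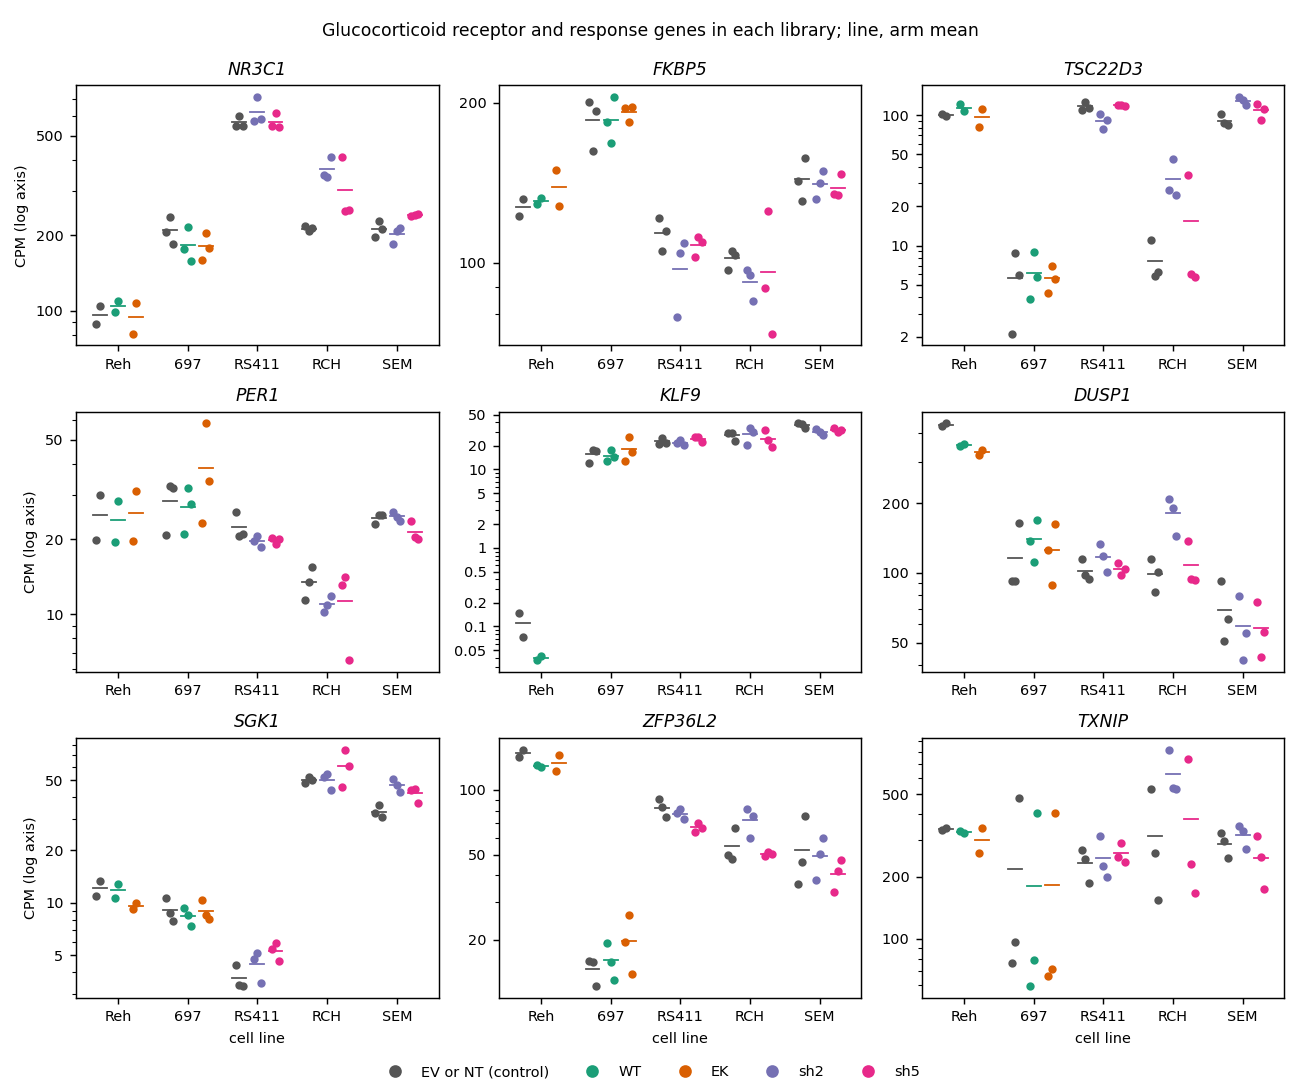
Level of each of the 9 genes in each of the 42 libraries (dots, CPM on a log axis) by cell line and arm, with a short line at each arm's mean. NR3C1 is highest in RS411 and DUSP1 in Reh in every arm, and KLF9 in Reh EK, at 0 reads in both libraries, cannot be drawn on a log axis.

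For most members the lines lay further apart than the arms of a line. In the control arms NR3C1 was highest in RS411, at 565 ± 30.6 CPM (SD, n = 3). RCH (213 ± 4.79), SEM (212 ± 15.5) and 697 (209.8 ± 26.5) followed and overlapped, and Reh was lowest, at 96.4 ± 11.8 (SD, n = 2). These orders are descriptions, since the lines were not tested against each other.

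The response genes did not follow the receptor's order. TSC22D3 was at 116 ± 9.17 CPM in RS411, 99.8 ± 2.94 in Reh and 90.6 ± 9.23 in SEM, with Reh and SEM overlapping, but at 7.67 ± 2.83 in RCH and 5.63 ± 3.37 in 697, which also overlapped. SGK1 had another order with no overlap between neighbours, from 50.2 ± 1.93 CPM in RCH through 33.1 ± 2.64 in SEM, 12.1 ± 1.70 in Reh and 9.03 ± 1.41 in 697 to 3.72 ± 0.608 in RS411. RS411 thus had the most receptor transcript and the least SGK1 transcript.

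Reh had the lowest receptor level and the highest control levels of DUSP1 and ZFP36L2. DUSP1 was at 436 ± 8.12 CPM in Reh against 116 ± 41.2 in 697, 102 ± 11.0 in RS411, 99.2 ± 15.9 in RCH and 68.8 ± 21.2 in SEM, where each of the last 4 overlapped its neighbour. ZFP36L2 was at 148 ± 8.36 CPM in Reh, 82.7 ± 8.01 in RS411, 54.7 ± 10.3 in RCH, 52.7 ± 20.3 in SEM and 14.7 ± 2.12 in 697. Its RCH and SEM libraries overlapped, and the other neighbours did not.

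KLF9 was nearly silent in 1 line. It ran from 36.7 ± 2.47 CPM in SEM through 27.1 ± 3.29 in RCH, 22.9 ± 2.17 in RS411 and 15.7 ± 3.18 in 697, with overlap between RCH and RS411 alone. In Reh it had 4 and 2 reads with EV, 1 and 1 with WT and 0 and 0 with EK, at or near the 3 reads that a count of 0 allows, so it was left out of the Reh tests by the low-count filter.

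For FKBP5, PER1 and TXNIP the line means lay closest to each other. FKBP5 ran from 185 ± 20.2 CPM in 697 through SEM (144 ± 13.5), Reh (127 ± 6.62) and RS411 (114 ± 7.99) to 102 ± 4.39 in RCH, with SEM and Reh overlapping. PER1 lay between 22.4 ± 2.84 and 28.5 ± 6.68 CPM in 4 lines that overlapped in turn, and at 13.4 ± 2.07 in RCH. TXNIP means lay between 217 and 341 CPM, each line overlapping the next.

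**Figure D2:**
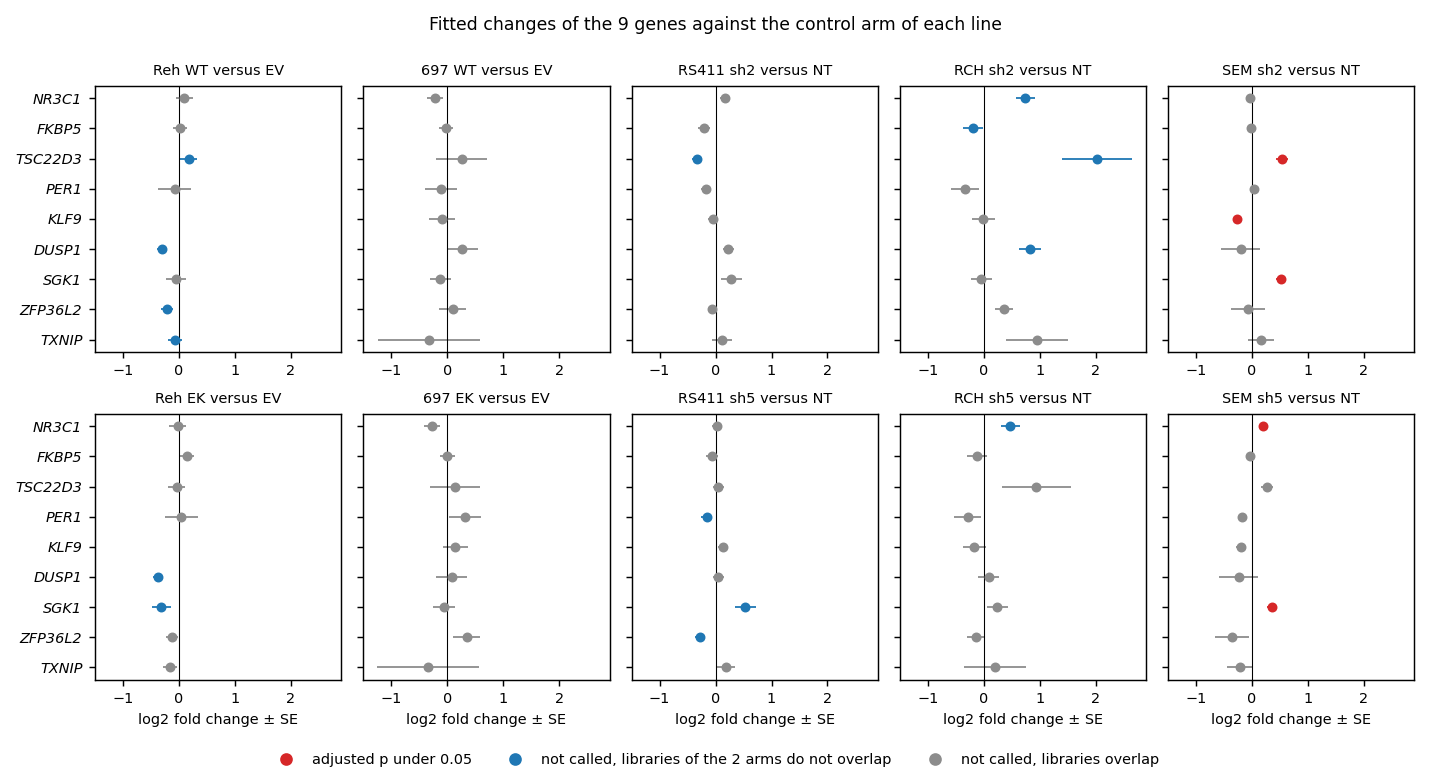
Fitted log2 fold change (dot) and standard error (bar) of each gene against the control arm of its line, with WT or sh2 in the upper row and EK or sh5 in the lower row. Called changes are red, uncalled ones whose libraries do not overlap blue and the others grey; the red ones stood in SEM alone, at 3 genes with sh2 and 2 with sh5, and KLF9 in Reh was not tested.

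Against the control arm, members passed the test over all genes in SEM alone among the 5 lines. With sh2 in SEM, TSC22D3 and SGK1 rose and KLF9 fell, and with sh5 SGK1 and NR3C1 rose. A gene is called when its adjusted p, from edgeR (limma in 697) over all genes tested, was under 0.05. SEM was also the line where most genes were called: the 3 of 9 members called with sh2 stood beside 27.9% of all genes tested, and the 2 of 9 with sh5 beside 21.3%, so neither share is a result about the members. In SEM, RS411 and 697 libraries of the same replicate number deviated together. For those 3 lines a fit with that number as a block is named where it changes a call. In RCH not every such pair did, and Reh has 2 numbers, so block calls there carry that limit. With the block, 4 of 9 were called with sh2 in SEM (37.9% of all genes) and 6 of 9 with sh5 (32.8% of all genes).

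In the other lines edgeR or limma called no member against the control arm. In Reh the share of all genes called was 0.219% for WT and 0.213% for EK, with 1 of 8 members at an unadjusted p under 0.05 in each and none called by DESeq2. In 697 it was 0.190% and 0.172%, with no member at an unadjusted p under 0.05, and edgeR on the recovered reads called none either. In RS411 it was 1.67% for sh2 and 0.478% for sh5, with 2 members at an unadjusted p under 0.05 in each. DESeq2 there called TSC22D3 lower with sh2 and ZFP36L2 lower with sh5. The share of all genes that DESeq2 called is not given, in this line or the others. Its calls are thus no result about the members as a group. With the block, which called 14.5% of all genes for sh2 and 5.41% for sh5, 1 and 2 members were called in RS411. Over all genes tested without the block, an unadjusted p under 0.05 was held in Reh by 793 (WT) and 982 (EK) of 15972. The like counts were 468 (WT) and 796 (EK) of 16310 in 697, and 3124 (sh2) and 1932 (sh5) of 17165 in RS411.

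In RCH edgeR called 1.37% of all genes with sh2 and 0.0229% with sh5. There 4 members had an unadjusted p under 0.05 with sh2 and 1 with sh5, beside 3273 and 706 of all 17468 genes tested. DESeq2, within the limit given for RS411, called NR3C1 and DUSP1 higher with sh2 and none with sh5. Between EK and WT edgeR in Reh and limma in 697 called 0 of all genes. No member had an unadjusted p under 0.05 there, and DESeq2 in Reh and edgeR on the recovered reads in 697 called none. Between the hairpins 1 of 9 members was called in SEM (12.4% of all genes), and none in RS411 (0.577% of all genes; 2 at an unadjusted p under 0.05, 1 by DESeq2) or RCH (0 of all genes; 2 at an unadjusted p under 0.05, 0 by DESeq2). Of all genes tested between the hairpins, 2196 of 17165 in RS411 and 1714 of 17468 in RCH had an unadjusted p under 0.05. Comparisons within a line share its control arm.

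NR3C1, the receptor itself, lay higher with sh2 in RCH but not in SEM. In RCH it was at 217, 208 and 213 CPM with NT, and at 348, 341 and 413 CPM with sh2. All sh2 libraries lay above all NT libraries, a fitted log2 change of 0.74 ± 0.17 (SE) that edgeR did not call (adjusted p = 0.0608). Of all genes tested there, 16.2% had every sh2 library above every NT library. Without RCH sh5 replicate 1, whose spread entered the shared fit, the change of 0.74 was called (adjusted p = 0.00698), as it was with DESeq2 (0.75, adjusted p = 0.00453), with no filter on low counts (0.72, adjusted p = 0.000266) and with the 2 arms alone (0.76, adjusted p = 0.0180).

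With sh5 in RCH, NR3C1 was at 409, 249.0 and 252 CPM, all above NT, where 4.76% of all genes were so placed. The log2 change was 0.47 ± 0.17 (adjusted p = 0.982), and without replicate 1, the library at 409 CPM, it was 0.25 (adjusted p = 0.995).

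In SEM NR3C1 was at 198, 229 and 211 CPM with NT, at 185, 209 and 215 with sh2 and at 239, 241 and 242 with sh5. The sh2 and NT libraries overlapped and sh2 did not pass (adjusted p = 0.647). The sh5 libraries lay above all others, and the rise of 0.19 ± 0.06 over NT was called (adjusted p = 0.0357), as was the difference of 0.24 ± 0.06 between sh5 and sh2 (adjusted p = 0.0180), where 12.4% of all genes were called. The rise over NT was no longer called when NT replicate 1 or 3 or any 1 of the sh5 replicates was left out (adjusted p 0.0189 to 0.102 over the 9 left-out libraries), nor with upper-quartile factors or a filter at a mean of 5 CPM (up to 0.153). The difference between the hairpins was lost without sh2 replicate 1 or sh5 replicate 2 or 3 (up to adjusted p = 0.101).

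In RS411 NR3C1 was at 546, 600 and 549 CPM with NT, 575, 712 and 582 with sh2 and 544, 618 and 541 with sh5. The arms overlapped and neither hairpin passed (adjusted p = 0.350 and 0.940). In 1 joint edgeR fit of the 3 knockdown lines, NR3C1 was called for the mean response to sh2 (0.30 ± 0.08, adjusted p = 0.00665) and for a difference between lines in that response (adjusted p = 0.0123). The shares of all genes called were 15.0% and 7.93%. With sh5 the mean response of 0.24 ± 0.08 was not called (adjusted p = 0.0602), nor was the difference between lines (adjusted p = 0.552, beside 1.75% of all genes). The mean response was called without RCH sh2 replicate 3 or RCH sh5 replicate 2 or 3 (lowest adjusted p = 0.0125). It was also called with no filter on low counts (0.00438) and with the block (0.0187), within the limit given for RCH.

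Added NSD2 gave no called change of the receptor. In Reh NR3C1 was at 88.1 and 105 CPM with EV, 98.6 and 109 with WT and 81.1 and 107 with EK, and in 697 at 207, 238 and 185 with EV, 176, 216 and 158 with WT and 160, 205 and 178 with EK. In 697 each WT and each EK library lay below the EV library of its own number, at 77.2% to 96.1% of it, but the arms overlapped and neither passed with or without the block (adjusted p 0.182 to 1.00).

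**Figure D3:**
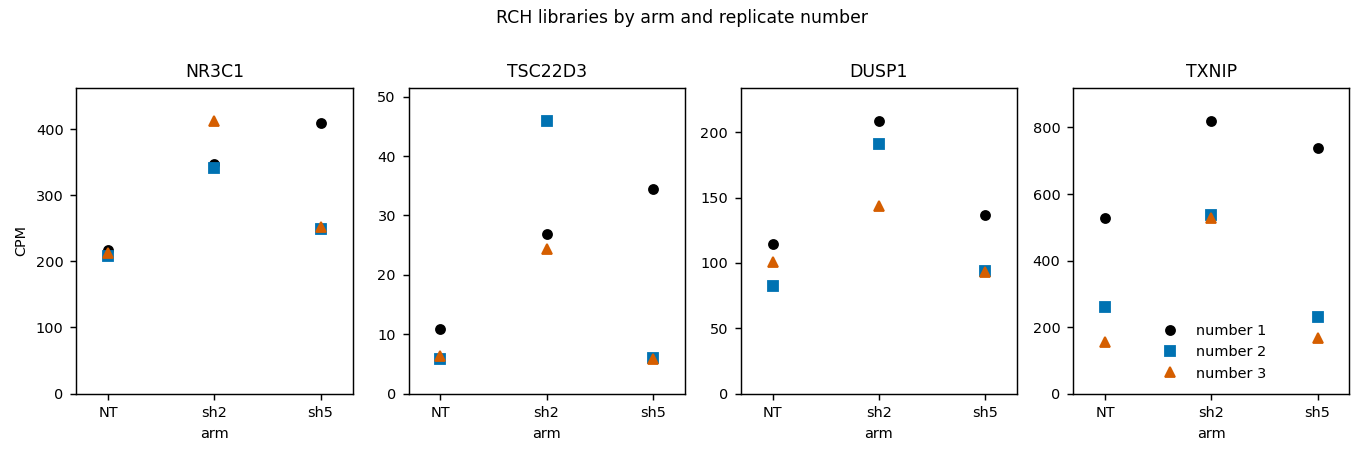
CPM of NR3C1, TSC22D3, DUSP1 and TXNIP in each RCH library by arm, with the symbol giving the replicate number. The 3 sh2 libraries lie above NT for the first 3 genes, and sh5 replicate 1 (black circle) lies far from the other sh5 libraries for NR3C1, TSC22D3 and TXNIP.

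FKBP5, the HSP90 cochaperone that lowers the receptor's affinity for its ligand, gave no called change in any arm. Its libraries spanned 123 to 149.7 CPM in Reh and 162 to 205 in 697. They spanned 79.1 to 121 CPM in RS411, 73.7 to 125 in RCH and 131 to 158 in SEM. Control and treated arms overlapped in 9 of 10 comparisons. The exception was RCH sh2, at 97.0, 95.05 and 84.7 CPM below NT at 97.0, 105 and 104, by -0.19 ± 0.18 (adjusted p = 0.581). In that comparison 9.89% of all genes lay lower without overlap, and sh2 replicate 1 was just under NT replicate 1.

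TSC22D3 encodes GILZ, a leucine zipper protein that restrains inflammatory transcription factors. In SEM it was at 101, 86.4 and 84.2 CPM with NT and 137, 131 and 119 with sh2, with no overlap. It rose 1.44-fold, a log2 change of 0.53 ± 0.11 (adjusted p = 0.00268), and stayed called without each of the 9 libraries in turn. With sh5 it was at 122, 91.9 and 112 CPM, above the NT library of its own number in all 3 cases, and the log2 change of 0.27 ± 0.11 was not called (adjusted p = 0.0932), but was with the block (0.00721). It was also called without NT replicate 1 or sh5 replicate 2 (lowest adjusted p = 0.0135) and with no filter on low counts.

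In RCH TSC22D3 was at 10.9, 5.81 and 6.27 CPM with NT and at 26.8, 45.9 and 24.4 with sh2. The libraries did not overlap, yet the log2 change of 2.03 ± 0.63 was not called (adjusted p = 0.143). It was called without sh5 replicate 1 (2.02, adjusted p = 0.00785) and with the 2 arms alone (2.04, adjusted p = 0.0242). The sh5 libraries were at 34.5, 6.02 and 5.75 CPM, so that replicate 1 lay among the sh2 libraries and the others near the lowest NT library, and sh5 did not pass. Without that replicate sh5 was lower than sh2 by -2.40 ± 0.36 (adjusted p = 0.0442; 0.558 with it).

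RS411 went the other way with sh2. TSC22D3 was at 109, 127 and 113 CPM with NT and at 102, 78.6 and 91.2 with sh2, every sh2 library below every NT library, as for 12.1% of all genes tested. The log2 change of -0.33 ± 0.10 was not called by edgeR (adjusted p = 0.0983; 0.0782 without sh2 replicate 3), but was with no filter on low counts (0.00923) and by DESeq2 (0.0472). The sh5 libraries, at 119, 119 and 117 CPM, overlapped NT (adjusted p = 0.899).

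In the joint fit TSC22D3 was called for the mean response to sh2 (0.75 ± 0.25, adjusted p = 0.0484), a call lost when any 1 of 22 of the 27 libraries was left out (up to 0.110); it held without RCH NT replicate 1, RCH sh2 replicate 3 or any RCH sh5 library. The difference between lines was not called (adjusted p = 0.0530), but was with no filter on low counts (6.31e-35). So was the difference with sh5 (0.000153, against 0.870 with the filter). These unfiltered values lie far from the filtered ones and are not read as stronger evidence, here or for other members. The cause of that shift was not tested, and the share of all genes called without the filter is not given. In Reh and 697 no change was called: the Reh libraries ran from 80.6 to 121 CPM and the 697 libraries from 2.12 to 8.94. Both Reh WT libraries, at 121 and 107 CPM, lay above EV at 102 and 97.8, by 0.17 ± 0.15, which did not pass, where 16.8% of all genes lay higher without overlap.

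KLF9, a zinc-finger repressor that feeds back on glucocorticoid responses, fell with sh2 in SEM. It was at 38.5, 37.7 and 33.9 CPM with NT and 32.7, 30.3 and 27.3 with sh2, without overlap, a log2 change of -0.26 ± 0.08 (adjusted p = 0.0277). It was the 1 member lower without overlap there, beside 21.2% of all genes. The call was lost without NT replicate 1 or 2 or sh2 replicate 2 or 3 (up to adjusted p = 0.151). With sh5 it was at 34.0, 29.6 and 31.7 CPM, overlapping NT. The log2 change of -0.20 ± 0.08 was not called (adjusted p = 0.112), but was with the block (0.0182) and with upper-quartile factors. In RS411 and RCH the arms overlapped throughout, between 19.1 and 33.4 CPM.

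PER1, a repressor of the circadian clock, was called in no comparison with a control arm. In SEM it was at 23.1, 24.9 and 24.9 CPM with NT, 25.7, 24.5 and 23.7 with sh2 and 23.6, 20.4 and 20.0 with sh5. The sh5 libraries lay below all sh2 libraries, by -0.22 ± 0.08 (adjusted p = 0.0941 without the block, 0.0285 with it, and 0.0406 without sh5 replicate 1). That comparison called 5 of 9 members with the block, beside 20.7% of all genes. In RS411 all sh5 libraries, at 20.2, 19.1 and 20.0 CPM, lay below NT at 25.7, 20.5 and 21.0, by -0.16 ± 0.09 (adjusted p = 0.565). PER1 and ZFP36L2 were the 2 members lower without overlap there, beside 10.3% of all genes. PER1 spanned 19.4 to 31.1 CPM in Reh and 6.56 to 15.5 in RCH, with overlap between arms.

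In 697 PER1, KLF9 and ZFP36L2 had their highest library in EK replicate 2, the library with the high mitochondrial share. PER1 was there at 58.1 CPM against 20.8 to 34.0 in the other 8 libraries, KLF9 at 25.8 against 12.0 to 17.8 and ZFP36L2 at 26.0 against 12.2 to 19.6. The part of that share in these levels was not tested, and none of these genes passed with EK (adjusted p = 0.986 for each).

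DUSP1, the phosphatase that switches off p38 and JNK kinases, lay lower with added NSD2 in Reh. It was at 429.9 and 441 CPM with EV, 352 and 362 with WT and 324 and 339.5 with EK. All libraries of both arms lay below EV, by -0.30 ± 0.09 for WT and -0.37 ± 0.09 for EK, and neither passed (adjusted p = 0.649 and 0.318). With the block both were called (adjusted p = 0.0281 and 0.00503), within the limit that Reh has 2 numbers. Of the 8 members tested in Reh, 3 lay lower without overlap with WT and 2 with EK, beside 13.0% and 14.9% of all genes. The others were ZFP36L2 and TXNIP with WT and SGK1 with EK.

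In RCH DUSP1 was at 114, 82.6 and 101 CPM with NT and at 209, 191 and 144 with sh2, without overlap. The log2 change of 0.83 ± 0.19 was not called (adjusted p = 0.0626), and it was called without sh5 replicate 1 (0.83, adjusted p = 0.0214) or sh2 replicate 3 (0.98, adjusted p = 0.0246), by DESeq2 (0.84, adjusted p = 0.00479), with no filter on low counts (0.80, adjusted p = 3.54e-05) and with the 2 arms alone (0.84, adjusted p = 0.0499). The sh5 libraries, at 137, 94.0 and 93.3 CPM, overlapped NT and lay below all sh2 libraries, by -0.74 ± 0.19 (adjusted p = 0.286; -0.90 and 0.0599 without sh5 replicate 1), which was called with no filter on low counts (-0.71, adjusted p = 0.00126). With the block DUSP1 was called with sh2 (adjusted p = 0.00501) and between the hairpins (adjusted p = 0.0243), within the limit given for RCH. DUSP1, TSC22D3 and NR3C1 were the 3 members higher without overlap with sh2 in RCH, beside 16.2% of all genes.

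In SEM the DUSP1 level followed the replicate number. It was at 92.3, 50.9 and 63.3 CPM with NT, 79.8, 42.2 and 54.9 with sh2 and 75.1, 43.5 and 55.5 with sh5, so the arms overlapped and the unblocked fit passed neither hairpin (adjusted p = 0.734 and 0.696). Within each number both hairpins lay below NT, at 81.4% to 87.8% of it, while the unblocked change turned positive without NT replicate 1 (0.08 with sh2 and 0.04 with sh5). With the block DUSP1 fell by 0.21 ± 0.05 with sh2 (adjusted p = 0.00230) and by 0.23 ± 0.05 with sh5 (adjusted p = 0.00133) on the log2 scale. In RS411 sh2 the block gave a rise of 0.22 ± 0.06 (adjusted p = 0.0158; 0.259 without the block, where it was 0.0613 with sh2 replicate 3 left out), from 115, 98.4 and 93.8 CPM with NT to 134, 118 and 101. In 697 DUSP1 was at 163 to 169 CPM in the replicate 3 libraries of all arms and at 88.8 to 137 in the others.

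SGK1, a kinase of the AKT family that acts on ion transport and survival signals, was called with both hairpins in SEM. It was at 32.4, 35.9 and 30.8 CPM with NT, 50.9, 46.9 and 42.7 with sh2 and 44.3, 44.9 and 37.1 with sh5, and neither hairpin arm overlapped NT. It rose 1.44-fold with sh2 (0.53 ± 0.09, adjusted p = 0.000364) and 1.28-fold with sh5 (0.36 ± 0.09, adjusted p = 0.00867). The first was called without each of the 9 libraries in turn, and the second was lost without sh5 replicate 2 (adjusted p = 0.0507). SGK1 and TSC22D3 were the 2 members higher without overlap with sh2, and SGK1 and NR3C1 the 2 with sh5, beside 17.5% of all genes in each case.

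**Figure D4:**
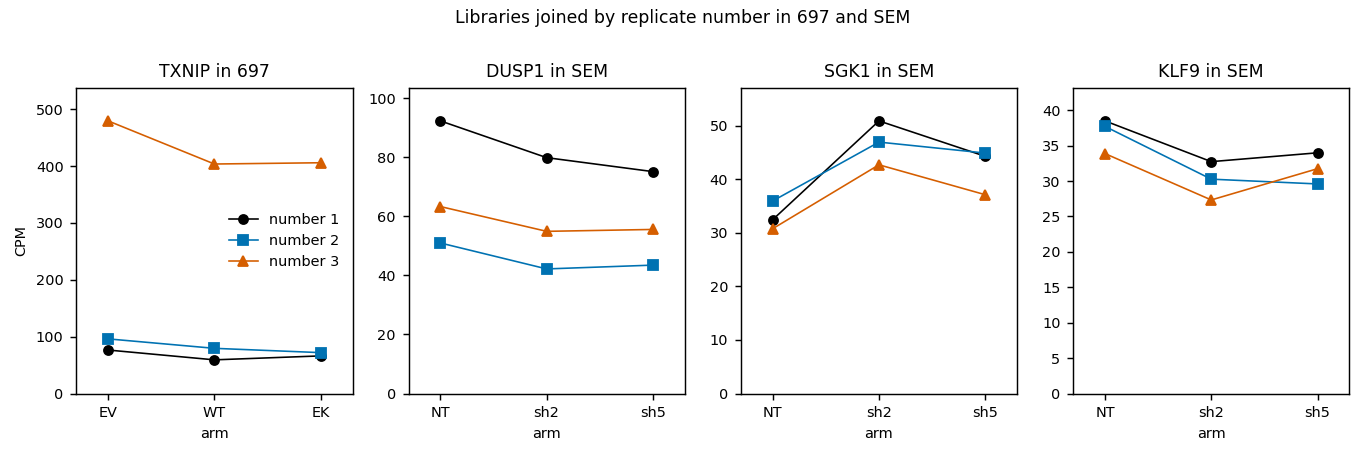
CPM of TXNIP in 697 and of DUSP1, SGK1 and KLF9 in SEM by arm, with libraries of the same replicate number joined. TXNIP in 697 separates by number (404 to 479 CPM in number 3, 59.2 to 96.1 in the others), while each DUSP1 line in SEM runs lower from NT to both hairpins.

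In RS411, where SGK1 was lowest, it was at 4.42, 3.40 and 3.34 CPM with NT, 4.78, 5.17 and 3.46 with sh2 and 5.42, 5.89 and 4.64 with sh5, on 93 to 324 reads per library. All sh5 libraries lay above NT, as for 8.66% of all genes, by 0.53 ± 0.19, which passed only with the block (adjusted p = 0.301 without, 0.0444 with). In RCH it was at 48.2, 52.1 and 50.3 CPM with NT, 52.5, 54.5 and 44.2 with sh2 and 46.0, 74.8 and 60.2 with sh5, all overlapping. Over the 3 lines the mean response was called with sh5 (0.38 ± 0.09, adjusted p = 0.00930; 5.11% of all genes called) and with sh2 (0.27 ± 0.09, adjusted p = 0.0410). The sh2 call was lost (up to adjusted p = 0.0927) without RS411 NT replicate 2 or 3, RS411 sh2 replicate 1 or 2, RCH NT replicate 3, RCH sh2 replicate 1 or 2, SEM NT replicate 1 or 3 or SEM sh2 replicate 1 or 2. The sh5 call held when each of the 27 libraries was left out in turn (up to 0.0249). In Reh SGK1 was at 10.9 and 13.3 CPM with EV and at 9.25 and 9.91 with EK (-0.31 ± 0.17, which did not pass), and in 697 it ran from 7.40 to 10.6 CPM over all arms.

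ZFP36L2, an RNA-binding protein that speeds the decay of AU-rich transcripts, lay lower with sh5 in RS411. It was at 90.4, 83.3 and 74.4 CPM with NT and at 63.8, 70.3 and 66.5 with sh5, without overlap. The log2 change of -0.29 ± 0.07 was not called without the block (adjusted p = 0.142), and with it ZFP36L2 fell by 0.28 ± 0.06 (adjusted p = 0.00902). The sh2 libraries, at 77.8, 81.9 and 73.3 CPM, overlapped NT and lay above all sh5 libraries, and with the block sh5 was lower than sh2 by -0.22 ± 0.06 (adjusted p = 0.0254), beside 9.06% of all genes.

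In SEM, RCH, Reh and 697 ZFP36L2 was called in no comparison with the control arm. Its joint mean response to sh5 was not called in the main fit (adjusted p = 0.226), but was with no filter on low counts (-0.25 ± 0.07, adjusted p = 0.0199). In SEM NT its replicates lay far apart, at 36.6, 46.0 and 75.4 CPM, which the hairpin arms overlapped at 33.4 to 59.6. In RCH it was at 49.8, 47.8 and 66.6 CPM with NT, 81.2, 59.5 and 75.6 with sh2 and 49.2, 51.6 and 50.1 with sh5. In Reh both WT libraries, at 131 and 127 CPM, lay below EV at 142 and 154, by -0.21 ± 0.11, which did not pass.

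TXNIP, an arrestin that curbs glucose uptake and binds thioredoxin, varied widely between replicates. In 697 it was at 76.5, 96.1 and 479 CPM with EV, 59.2, 79.5 and 404 with WT and 66.2, 71.9 and 406 with EK. Replicate 3 was the highest in each arm, and within each number WT and EK lay at 74.8% to 86.5% of EV. Neither passed without the block or with it (with it, adjusted p = 0.158 for WT and 0.113 for EK).

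In RCH TXNIP was at 529, 259.7 and 155 CPM with NT, 819.8, 537 and 528 with sh2 and 737, 231 and 167 with sh5. The sh2 libraries overlapped NT through NT replicate 1 alone, and the log2 change of 0.95 ± 0.56 was not called (adjusted p = 0.373, or 0.265 without sh5 replicate 1). With the block the change was 1.13 ± 0.23 and called (adjusted p = 0.0179), though not every same-number pair in RCH deviated together. The sh5 mean was 199 ± 44.9 CPM without replicate 1 (SD, n = 2), and sh5 did not pass with or without it. In SEM it was at 324, 297 and 245 CPM with NT, 352, 331 and 272 with sh2 and 316, 248 and 175 with sh5. With the block it fell by 0.24 ± 0.07 with sh5 on the log2 scale (adjusted p = 0.0253; 0.583 without), and sh5 was lower than sh2 by -0.41 ± 0.07 (adjusted p = 0.00194). In RS411 TXNIP overlapped between arms, at 186 to 314 CPM, and in Reh both WT libraries, at 331 and 324 CPM, lay just below EV at 337 and 345.

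Other genes of the pathway were read from 5 lists of 77 genes. In SEM 23 of 71 tested were called with sh2 (10 higher, 13 lower) and 22 of 71 with sh5 (10 higher, 12 lower), which is 32.4% and 31.0% beside 27.9% and 21.3% of all genes. The lists did not move 1 way. In the same libraries summed B-cell precursor markers ran from 1432 to 1547 CPM with NT and from 1264 to 1309 with the hairpins, with VPREB1, CD22 and EBF1 called lower with both hairpins and BLNK called higher with sh5. Summed myeloid markers (6 genes) ran from 13.5 to 20.6 CPM with NT and from 32.5 to 54.3 with the hairpins. S100A9 was at 0 with NT and sh5. In each arm 2 of the 6 were above 1 CPM, and CSF1R made up most of the sum. Its mean rose from 16.2 CPM in the NT arm to 40.0 under sh2 and 43.6 under sh5. Summed stromal and epithelial markers (6 genes) ran from 100.4 to 129 CPM with NT and from 142 to 163 with the hairpins. PDGFRB made up most of that sum. Its mean rose from 111 CPM in the NT arm to 153 under sh2 and 147 under sh5. Neither sum thus describes its list as a whole. The part of these markers in the results was not tested.

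Of the 12 listed chaperones and cochaperones, not all of which serve the receptor alone, 4 were called higher and none lower with each hairpin in SEM. There 27.9% (sh2) and 21.3% (sh5) of all genes were called. All 12 had a positive log2 change. The median change was 0.15 with sh2 and 0.18 with sh5, beside 0.01 and -0.01 over all genes. FKBP4, the cochaperone that competes with FKBP5 for HSP90, rose from 13.7 ± 1.58 to 20.5 ± 2.33 CPM with sh2 (0.61 ± 0.10, adjusted p = 0.000356) and to 17.8 ± 0.743 with sh5 (0.39 ± 0.10, adjusted p = 0.0135). CDC37, an HSP90 partner for kinases, rose with sh2 (0.23 ± 0.06, adjusted p = 0.0121) and BAG1, an HSP70 cochaperone, with sh5 (0.29 ± 0.07, adjusted p = 0.00863).

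Coregulators and steroid-handling genes went both ways in SEM, with 3 higher and 5 lower of 16 tested with sh2 and 2 higher and 4 lower with sh5. The shares of all genes called were 27.9% and 21.3%. NRIP1, a corepressor of nuclear receptors, fell from 14.3 ± 0.424 to 6.01 ± 0.722 CPM with sh2 (-1.23 ± 0.11) and to 9.58 ± 0.706 with sh5 (-0.56 ± 0.10). NR3C2, the mineralocorticoid receptor, was rare and fell from 1.21 ± 0.285 to 0.179 ± 0.127 CPM with sh2 (-2.76 ± 0.41) and to 0.273 ± 0.0314 with sh5 (-2.12 ± 0.37). All 4 changes were called (adjusted p 5.35e-07 to 0.00122).

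Other genes known as glucocorticoid-induced also split in SEM, with 3 higher and 7 lower of 26 tested with sh2 and 4 higher and 6 lower with sh5. Beside them 27.9% and 21.3% of all genes were called. SESN1, a stress protein that restrains mTORC1, rose from 43.8 ± 1.56 to 107 ± 6.74 CPM with sh2 (1.31 ± 0.06) and to 79.3 ± 3.04 with sh5 (0.87 ± 0.06). STOM, a membrane scaffold protein, rose from 52.9 ± 1.17 to 99.98 ± 1.14 and 82.3 ± 2.05 CPM (0.94 ± 0.05 and 0.65 ± 0.05). BCL2L11, the BH3-only protein BIM through which glucocorticoids kill lymphoblasts, fell from 52.5 ± 8.03 CPM to 35.2 ± 3.33 with sh2 (-0.56 ± 0.11, adjusted p = 0.00164) and to 34.2 ± 3.00 with sh5 (-0.61 ± 0.11, adjusted p = 0.00126). It was named after its values were seen.

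Among 12 immediate early genes, which share signals with DUSP1, none was called with sh2 in SEM (7 of 12 positive) and BTG2, an antiproliferative gene, fell with sh5 (-0.62 ± 0.15, adjusted p = 0.0149). The last list held 7 genes, MondoA itself and targets of MondoA and FOXO factors, which also act on TXNIP. In SEM 1 was called higher and 1 lower with sh2, and 1 higher and 2 lower with sh5. The shares of all genes called were 27.9% and 21.3%. SESN1 rose and SESN3, another sestrin, fell with both hairpins (-1.77 ± 0.13 and -1.72 ± 0.13 for SESN3). SESN1 and BTG2 each stand in 2 of the lists.

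In RCH 2 of 73 list genes were called with sh2 (1.37% of all genes) and none with sh5 (0.0229% of all genes). An unadjusted p under 0.05 was held by 32 of the 73 with sh2 and by 4 with sh5. Of all 17468 genes tested, 3273 and 706 held one. With sh2 PIK3IP1, an inhibitor of PI3 kinase, rose from 4.05 ± 0.394 to 9.35 ± 1.24 CPM (1.16 ± 0.23, adjusted p = 0.0382), and MED14, a Mediator subunit, from 18.0 ± 1.32 to 31.6 ± 4.40 (0.77 ± 0.16, adjusted p = 0.0450). The 12 chaperones all had negative changes with sh2, with a median of -0.51 beside -0.02 over all genes, and none was called (5 at an unadjusted p under 0.05). Of the 12 immediate early genes 11 had positive changes (median 0.52), with none called and 6 at an unadjusted p under 0.05. Among the other glucocorticoid-induced genes 20 of 28 tested had positive changes (median 0.31). There 1 was called and 15 had an unadjusted p under 0.05. In the same libraries summed myeloid markers ran from 19.3 to 25.8 CPM with NT and from 12.0 to 17.5 with sh2, and summed B-cell precursor markers from 1732 to 1832 with NT and from 1886 to 2054 with sh2, in both cases without overlap. The part of these markers was not tested.

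In RS411 SESN1 rose from 57.3 ± 3.58 to 122 ± 29.2 CPM with sh2 (1.11 ± 0.19, adjusted p = 0.0332) and SESN3 fell from 10.4 ± 1.15 to 4.35 ± 1.54 (-1.24 ± 0.22, adjusted p = 0.0223). No other of 72 list genes was called with sh2, where 1.67% of all genes were. With sh5 edgeR called none. With each hairpin 13 of the 72 had an unadjusted p under 0.05, beside 3124 (sh2) and 1932 (sh5) of all 17165 genes tested. In Reh and 697 none of 70 and 72 list genes was called with either vector, and 3 to 7 per comparison had an unadjusted p under 0.05. Of all genes tested, 793 (WT) and 982 (EK) of 15972 in Reh and 468 (WT) and 796 (EK) of 16310 in 697 had one. Calls by DESeq2 were tallied for the members only, not for the lists.

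Over the 27 knockdown libraries, the genes whose line-centred log2 levels were most like those of NR3C1 among 9411 genes were SORL1 (r = 0.890), SETDB1 (r = 0.874) and ERAP1 (r = 0.874). SORL1 encodes a sorting receptor, SETDB1 a histone H3 lysine 9 methyltransferase and ERAP1 a peptidase that trims antigens. SORL1 was at 61.9 ± 17.7 CPM with NT in RCH and 223 ± 53.9 with sh2, and in SEM at 37.9 ± 8.55 with NT, 27.4 ± 5.02 with sh2 and 50.3 ± 0.358 with sh5. Its correlation with NR3C1 was 0.927 over the 9 RCH libraries, 0.933 over the 9 SEM libraries and 0.385 over the 9 RS411 libraries. Among the members with at least 5 CPM on average in each line, r with NR3C1 was 0.700 for TSC22D3, 0.547 for TXNIP, 0.430 for DUSP1, 0.264 for ZFP36L2, 0.239 for KLF9, -0.192 for PER1 and -0.284 for FKBP5. These values are descriptions over libraries that share arms and replicate numbers, and the RCH libraries, with the widest range of NR3C1, weigh most in them.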

How the data were processed

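RNA of 5 B-ALL cell lines was sequenced in 54 base reads after a stranded total RNA kit with removal of ribosomal RNA, per the labels' protocols. Trimmomatic, STAR, featureCounts and the build hg19 are named in the submitters' processing notes, without versions, and no source used here states the strand setting of the counting, so reads of antisense or overlapping genes cannot be told apart. The authors deposited whole-number read counts per gene for all lines but 697. For 697 the authors deposited a normalized signal whose values are multiples of 1 step per library, from which whole reads were recovered for 100% of values above 0 (tolerance 0.001). In the tables read, 6 columns match no sample and were not used. Rows whose symbol a spreadsheet had made a date, 27 per knockdown line, stayed out of the tests (0.214%, 0.247% and 0.230% of reads in RS411, RCH and SEM). In Reh 123 of 15793 genes with at least 50 reads kept their identifier only.

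Levels are CPM. Counts were tested in R 4.3.3 with edgeR 4.0.16 (quasi-likelihood test, TMM factors, low-count filter), with the 3 arms of a line in 1 fit, and 697 with limma 3.58.1 on log2(value + 1), at a mean of at least 10, where a fold change is on that scale. A joint edgeR fit of the 27 knockdown libraries gave the mean response over lines and its difference between lines. All p-values were adjusted by Benjamini-Hochberg over all genes tested, and 0.05 was the threshold. The tests were also run on simulated counts modelled on SEM, Reh and 697 alone. The simulation held no replicate effect and no library apart from its arm, so it does not bear on such traits in RCH. No replicates were near-duplicates. Promoters are RefSeq windows on GRCh38.p14, another build than the counts, and serve for sequence only.

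Libraries of the same replicate number deviated together in 697 (r of deviations from arm means 0.426 to 0.593), RS411 (0.137 to 0.347) and SEM (0.121 to 0.311) in every pair. In RCH (-0.0689 to 0.635) they did not in every pair. In Reh they did (0.560 to 0.599), but it has 2 numbers, so the deviations within an arm mirror each other. Alternatives were DESeq2 1.42.0, other normalization factors and filters, 2 arms alone, the replicate block and leaving out each library. Genes named are the 9 members, up to 2 called genes per list and comparison with the smallest adjusted p, NSD2, and the 3 genes most like NR3C1. In SEM, BCL2L11, EBF1 and BLNK were named outside that rule. The members and lists were chosen with earlier results of these data known. Not every marker gene called is reported here.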

Additional observations from a re-analysis of the deposited data

Results flagged for a closer look

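The change of NR3C1 with sh2 differed between RS411, RCH and SEM in the joint edgeR fit (adjusted p = 0.0123), where 7.93% of all genes tested were called. The mean level went from 213 ± 4.79 CPM with NT to 367 ± 39.5 with sh2 in RCH (SD, n = 3), with every sh2 library above every NT library. In RS411 it went from 565 ± 30.6 to 623 ± 77.3 CPM and in SEM from 212 ± 15.5 to 203 ± 15.7, with overlap in both. The difference between lines with sh5 was not called (adjusted p = 0.552).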

How the results depend on the processing

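Shares of all genes called were given above for the main fit and for the block in SEM and RS411 only. The counts below under other settings are thus no result about the members. The number of members called moved by over 1.5 times in these cases. DESeq2 called 1 member in RS411 for sh2, for sh5 and between the hairpins, where edgeR called 0, and 2 in RCH sh2 against 0. With no filter on low counts 1 was called in RS411 sh2, 1 between the RS411 hairpins, 2 in RCH sh2, 1 between the RCH hairpins, 2 between the SEM hairpins, 5 for the joint sh2 mean, 4 for its difference between lines, 4 for the joint sh5 mean and 1 for its difference. With a mean of at least 5 CPM, 1 was called in SEM sh5, and with the 2 arms alone 3 in RCH sh2. With the replicate block the counts were 1 in Reh WT, 1 in Reh EK, 1 in RS411 sh2, 2 in RS411 sh5, 1 between the RS411 hairpins, 3 in RCH sh2, 1 between the RCH hairpins, 6 in SEM sh5, 5 between the SEM hairpins, 5 for the joint sh2 mean, 4 for its difference and 3 for the joint sh5 mean. Outside SEM, RS411 and 697 the block calls carry a limit. The lowest same-number correlation in RCH was -0.0689, and Reh, at 0.560 to 0.599, has 2 numbers. Among those block calls were DUSP1 in Reh, lower with WT (adjusted p = 0.0281) and EK (0.00503), and NR3C1 (0.0153), DUSP1 (0.00501) and TXNIP (1.13 ± 0.23, 0.0179) in RCH sh2. DUSP1 was called between the RCH hairpins (0.0243), NR3C1, TXNIP, DUSP1 and TSC22D3 for the joint sh2 difference (0.0192 for TSC22D3), and NR3C1 (0.0187) and ZFP36L2 (-0.24 ± 0.06, 0.0183) for the joint sh5 mean. Leaving out 1 library gave 0 to 3 in RCH sh2 (3 without RCH sh5 replicate 1), 0 to 1 between the RCH hairpins, 2 to 3 in SEM sh2, 1 to 2 in SEM sh5, 0 to 2 between the SEM hairpins, 1 to 3 for the joint sh2 mean, 1 to 2 for its difference and 1 to 2 for the joint sh5 mean. Without SEM NT replicate 1 the unblocked log2 change of DUSP1 reversed, to 0.0829 for sh2 and 0.0437 for sh5. The lowest values without 1 library were -0.48 and -0.46. The cause of these shifts was not tested. In 697 the block changed no call, and edgeR on the recovered reads with the block was added after seeing the data. KLF9 in Reh, at 0 to 4 reads, is limited by depth.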
